A study of Mus musculus with 2 samples.

Results

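The 10 genes described here encode p53 and proteins of the mitochondrial, or intrinsic, pathway of apoptosis: Trp53, its regulator and target Mdm2, its target Ccng1, the BH3-only genes Bbc3 and Pmaip1, the effectors Bax and Bak1, and the survival genes Bcl2, Bcl2l1 and Mcl1. They were chosen by name, as the probes whose gene symbol in the authors' deposited table is one of these, and they form 10 of 30858 features tested, a feature being a gene at its brightest probe or a probe without a symbol. RNA came from pancreatic islets isolated from C57BL/6J mice aged 8 weeks, taken 3 days after 60% pancreatectomy (removal of that share of the pancreas) or after a sham operation. It was hybridised to 8 one-colour Cy3 expression arrays, 4 of islets from pancreatectomised mice and 4 of islets from sham-operated mice. The labels give no genotype other than the strain and do not state if each array holds RNA of its own mice or islet preparation. A p-value here thus reflects the scatter of the 4 arrays of a group, some or all of which may be technical. All arrays lay on 1 slide, with the pancreatectomy arrays in columns 3 and 4 and the sham arrays in columns 1 and 2, so that slide column and operation cannot be told apart.

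In resting cells p53, a transcription factor, is kept low by Mdm2, a ubiquitin ligase that marks it for degradation, and damage or oncogenic stress frees it to switch on genes of cell cycle arrest and cell death. Mdm2 is itself one of those genes, which closes a feedback loop. BH3-only proteins such as Puma (Bbc3) and Noxa (Pmaip1) bind some or all of the survival proteins Bcl-2, Bcl-xL (Bcl2l1) and Mcl-1. Bax and Bak then open pores in the outer mitochondrial membrane from which cytochrome c escapes. Much of this control acts on the proteins, by degradation and by binding, and is not read by transcript levels.

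The 11 islet markers looked at (hormones, Pdx1, Mafa and others) were all well above background on every array. Brightness differed between arrays: the signal at the 75th percentile was 280 to 640 on pancreatectomy and 178 to 655 on sham arrays, the lowest being sham replicate 3. The mean of 10 genes of cycling cells was 8.80 to 10.53 on the log2 scale on pancreatectomy arrays and 5.70 to 6.42 on sham arrays, and 9 of the 10 passed the test. Other tissues were uneven between arrays of a group. The mean of 10 liver genes was 12.22 and 11.29 on pancreatectomy replicates 1 and 4 and 12.05 on sham replicate 4, against 5.25 to 7.06 on the others. The mean of 4 B-cell genes was 10.87 on pancreatectomy replicate 3 and 5.07 to 5.80 on the others, and that of 5 gut genes was 10.18 on the same array and 6.91 to 7.69 on the others. In such bulk RNA, fewer cells of a type and less RNA per cell cannot be told apart.

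None of the 10 genes differed between pancreatectomy and sham islets by the test used, limma with Benjamini-Hochberg adjustment over the 30858 features at an adjusted p of 0.05. Among the 10 genes 0 passed, against 194 of all features, or 0.629% (0.544% higher and 0.0843% lower after pancreatectomy). 1 of the 10, Pmaip1, had an unadjusted p under 0.05, as did 10.5% of all features. The same gene was the only 1 of the 10 with a change of at least 1 log2 unit, a size reached by 3.58% of all features. The groups overlapped for all 10 genes, while 8.28% of all features showed no overlap (2.99% with pancreatectomy higher and 5.3% with it lower). The median change, pancreatectomy minus sham, was -0.06 on the log2 scale over the 10 genes and -0.04 over all features. Of the 10 changes, 7 were below 0, as were 54.9% of all changes.

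The precision sets what these values can show. The 95% interval of the change lay within 1 log2 unit of 0, a 2-fold change, for 9 of the 10 genes, Pmaip1 being the exception. To reach the largest unadjusted p that passed over all features (3.09e-04), a gene with these standard errors would have needed a change of 0.90 (Bcl2l1) to 3.28 (Pmaip1). A smaller observed change would not have passed at the same standard error, with 4 arrays a group. This is a cut-off on the observed change and sets no limit on the true difference. Levels below are normalized log2 signals, and each gene's level is set only against its own level on other arrays.

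**Figure D1:**
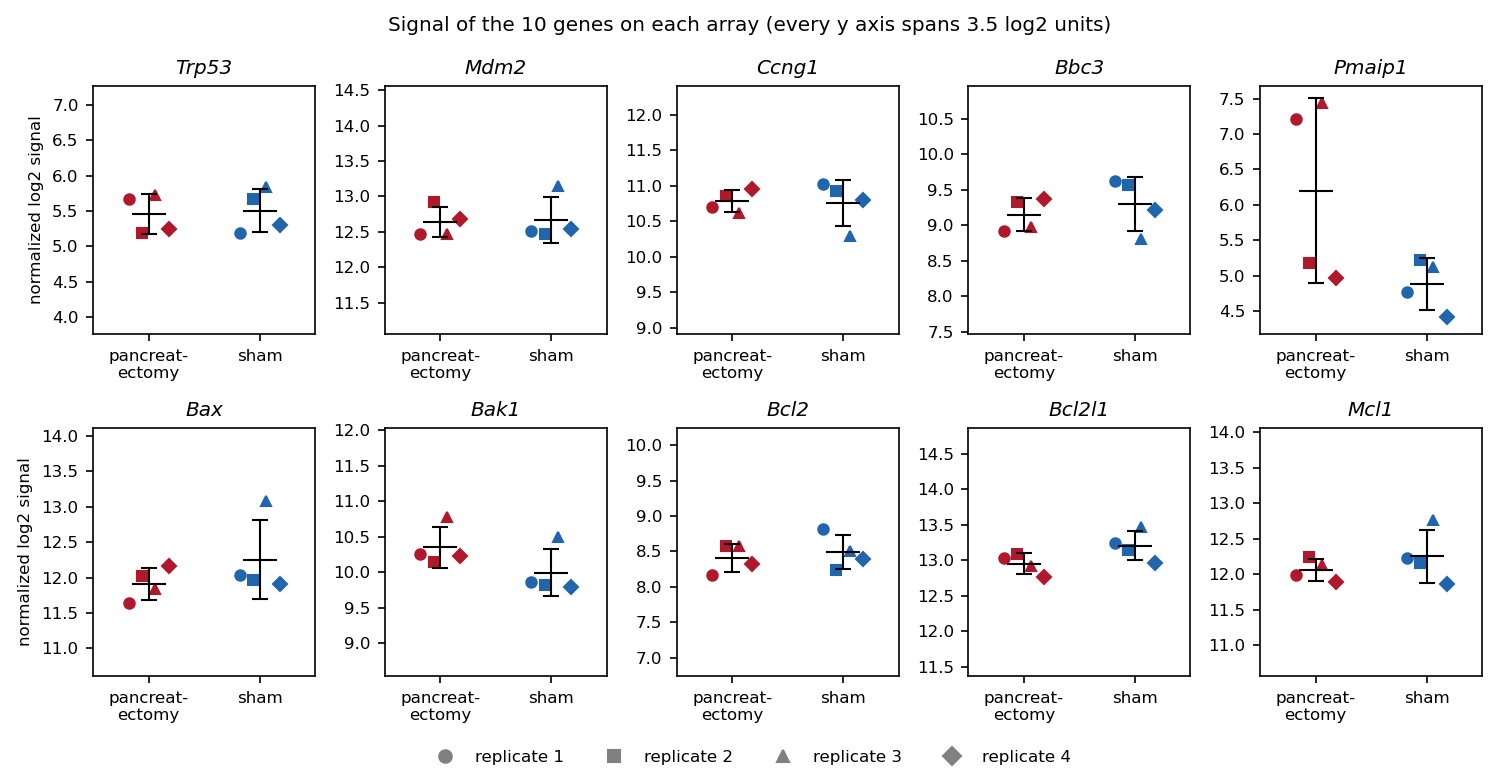
Normalized log2 signal of the 10 genes on each of the 8 arrays, pancreatectomy in red on the left and sham in blue on the right, with 1 symbol per replicate number and the mean and SD (n = 4) in black. The groups overlap for every gene. Pmaip1 is at 7.21 and 7.44 on pancreatectomy replicates 1 and 3, above all other arrays.

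Trp53, which encodes p53, had levels of 5.66, 5.19, 5.73 and 5.24 on pancreatectomy replicates 1 to 4 and of 5.19, 5.68, 5.84 and 5.31 on sham replicates 1 to 4. The groups covered nearly the same range, with means of 5.46 ± 0.28 after pancreatectomy and 5.50 ± 0.30 in sham (SD, n = 4 each). Its change was -0.05 ± 0.21 (SE, limma adjusted p = 0.948), with a 95% interval of -0.52 to 0.42. Its 1 probe lies at chr11:69404204-69404263 on mm9 (plus strand).

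Mdm2, the ligase that holds p53 down, had 12.48, 12.93, 12.47 and 12.68 on pancreatectomy replicates 1 to 4 and 12.52, 12.47, 13.15 and 12.55 on sham replicates 1 to 4. Sham replicate 3 was the highest of the 8 arrays, and the other sham arrays lay at 12.47 to 12.55, near the low end of the pancreatectomy arrays. The change was -0.03 ± 0.20 (adjusted p = 0.965), with an interval of -0.48 to 0.42. Without sham replicate 3 it was 0.13, and quantile scaling also turned its sign (0.02). The probe is at chr10:117126010-117126069 (mm9, minus strand).

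Ccng1, a target of p53 that encodes cyclin G1, had 10.71, 10.86, 10.62 and 10.96 after pancreatectomy and 11.03, 10.93, 10.29 and 10.81 in sham, in order of replicate. Here sham replicate 3 was the lowest array, and the highest was sham replicate 1. Its change was the closest to 0 of the 10, at 0.02 ± 0.19 (adjusted p = 0.975), with an interval of -0.41 to 0.45. It was -0.13 without sham replicate 3 and -0.10 with scaling by the median, a scaling that put the median of all features at -0.16. The probe is at chr11:40562427-40562486 (mm9, minus strand).

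Sequences just upstream of these genes and of the other genes of the group were taken from RefSeq, build GRCm38.p6, as the 250 bases before and 50 bases after each listed start. They were searched for 9 of the 10 genes, with 13 starts. The 10-base p53 consensus half-site, a palindrome that reads alike on both strands, was found without mismatch in 4 of these 13, those of Trp53, Mdm2, Ccng1 and Bax, and in 8.36% of all 32851 listed starts. These 4 are shown because they hold a match. The 3 starts of Bbc3, also a p53 target, hold none, and Pmaip1 was not searched. Capitals mark the half-site, which begins at -75 in Trp53, -186 in Mdm2, -185 in Ccng1 and -201 in Bax, counted from the start. A match in letters is a description only and shows no binding. The windows are chr11:69580109-69580408 (plus strand) for Trp53, chr10:117710709-117711008 (minus) for Mdm2, chr11:40755237-40755536 (minus) for Ccng1 and chr7:45466849-45467148 (minus) for Bax.
Trp53: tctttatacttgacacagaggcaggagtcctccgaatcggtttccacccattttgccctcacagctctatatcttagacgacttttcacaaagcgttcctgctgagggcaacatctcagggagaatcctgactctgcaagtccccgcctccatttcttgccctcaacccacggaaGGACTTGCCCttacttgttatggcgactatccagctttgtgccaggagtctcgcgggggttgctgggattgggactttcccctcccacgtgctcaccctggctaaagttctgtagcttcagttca
Mdm2: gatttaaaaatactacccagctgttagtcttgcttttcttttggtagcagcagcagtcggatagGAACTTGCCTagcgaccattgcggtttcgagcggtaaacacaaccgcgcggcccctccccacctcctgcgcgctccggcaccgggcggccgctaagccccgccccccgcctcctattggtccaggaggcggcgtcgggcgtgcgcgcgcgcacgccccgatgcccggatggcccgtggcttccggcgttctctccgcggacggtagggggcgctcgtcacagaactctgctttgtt
Ccng1: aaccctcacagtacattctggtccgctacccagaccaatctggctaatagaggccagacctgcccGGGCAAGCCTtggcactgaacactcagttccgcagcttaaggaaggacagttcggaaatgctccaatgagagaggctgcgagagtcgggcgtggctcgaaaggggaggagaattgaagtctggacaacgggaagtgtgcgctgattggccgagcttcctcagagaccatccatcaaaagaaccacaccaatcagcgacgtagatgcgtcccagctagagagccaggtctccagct
Bax: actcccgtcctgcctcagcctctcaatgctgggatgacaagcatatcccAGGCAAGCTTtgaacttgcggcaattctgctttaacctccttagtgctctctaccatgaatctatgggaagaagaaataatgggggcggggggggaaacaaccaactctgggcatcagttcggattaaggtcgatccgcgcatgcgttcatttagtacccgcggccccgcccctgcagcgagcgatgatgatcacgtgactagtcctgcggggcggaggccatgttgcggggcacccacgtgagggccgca

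Bbc3, which encodes the BH3-only protein Puma and is a p53 target, had 8.93, 9.33, 8.97 and 9.38 on pancreatectomy replicates 1 to 4 and 9.63, 9.57, 8.80 and 9.22 on sham replicates 1 to 4. The highest pair came from sham replicates 1 and 2 and the lowest value from sham replicate 3. The change was -0.15 ± 0.22 (adjusted p = 0.828), with an interval of -0.65 to 0.34. Within slide row 1 it was -0.48 and within slide row 2 it was 0.17, with 2 arrays against 2 in each. The probe is at chr7:16903403-16903462 (mm9, plus strand).

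Pmaip1, which encodes the BH3-only protein Noxa, a partner of Mcl-1 that p53 can induce, varied most among the 10 genes. It had 7.21, 5.18, 7.44 and 4.97 on pancreatectomy replicates 1 to 4 and 4.77, 5.23, 5.12 and 4.42 on sham replicates 1 to 4. Pancreatectomy replicates 1 and 3 stood above every sham array, while replicates 2 and 4 lay within the sham range. The means were 6.20 ± 1.31 after pancreatectomy and 4.88 ± 0.37 in sham (SD, n = 4 each), and the signal was above background on 4 of 4 pancreatectomy and 3 of 4 sham arrays. The change of 1.32 ± 0.57, a 2.49-fold difference, did not pass (unadjusted p = 0.0477, limma adjusted p = 0.469), with an interval of 0.02 to 2.62. Without pancreatectomy replicates 1 and 3 it was 0.19 (adjusted p = 0.912), and with normexp background correction it was 0.74. The probe lies on chromosome 18 at 66625088 to 66625147 (mm9, plus strand).

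Bax, which forms pores in the mitochondrial membrane and is also a p53 target, had 11.64, 12.02, 11.83 and 12.16 on pancreatectomy replicates 1 to 4 and 12.03, 11.97, 13.08 and 11.91 on sham replicates 1 to 4. Apart from sham replicate 3, all arrays of both groups lay between 11.64 and 12.16. The change was -0.34 ± 0.28 (adjusted p = 0.698), with an interval of -0.96 to 0.29, and it was -0.06 without sham replicate 3. The probe is at chr7:52717122-52717181 (mm9, minus strand).

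Bak1, which encodes Bak, the other pore-forming effector, had 10.26, 10.14, 10.77 and 10.22 on pancreatectomy replicates 1 to 4 and 9.86, 9.82, 10.50 and 9.80 on sham replicates 1 to 4. Every pancreatectomy array lay above sham replicates 1, 2 and 4, and sham replicate 3 lay above all but pancreatectomy replicate 3. The change was 0.35 ± 0.22 (adjusted p = 0.606), with an interval of -0.14 to 0.85. Without sham replicate 3 it was 0.52 (adjusted p = 0.256), and without the arrays that carry liver, gut or B-cell transcripts it was 0.08, from 1 pancreatectomy array against 3 sham arrays. The probe is at chr17:27156807-27156866 (mm9, minus strand).

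Bcl2, the founding survival gene of the family, was read by 1 probe, annotated to transcript variant 2, at chr1:108608970-108609029 (mm9, minus strand). Its levels were 8.17, 8.58, 8.57 and 8.32 on pancreatectomy replicates 1 to 4 and 8.81, 8.24, 8.51 and 8.39 on sham replicates 1 to 4. The arrays of the groups were interleaved, and the change was -0.08 ± 0.17 (adjusted p = 0.899), with an interval of -0.47 to 0.32. On pancreatectomy replicate 3, where the B-cell genes were high, Bcl2 had 8.57, close to the 8.58 of replicate 2.

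Bcl2l1, which encodes Bcl-xL, had 13.04, 13.09, 12.92 and 12.76 on pancreatectomy replicates 1 to 4 and 13.25, 13.15, 13.47 and 12.97 on sham replicates 1 to 4. Pancreatectomy replicates 3 and 4 lay below every sham array and the other two within the sham range. The change was -0.25 ± 0.16 (adjusted p = 0.609), with an interval of -0.61 to 0.10. This is the smallest standard error of the 10 genes. The change was below 0 in all 23 alternatives, which reuse the same arrays, from -0.38 to -0.13. A second probe of the gene, 48781 bases away (chr2:152655185-152655244 against chr2:152606404-152606463, mm9, minus strand), gave -0.49 ± 0.46. On that probe sham replicate 3 read 7.33 and the other sham arrays 5.21 to 5.53, against 5.08 to 5.89 after pancreatectomy. The changes of Bax (-0.50 to -0.06), Mcl1 (-0.32 to -0.02), Bak1 (0.08 to 0.59) and Pmaip1 (0.14 to 1.73) also kept their sign throughout the alternatives.

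Mcl1, which encodes a short-lived survival protein, had 11.99, 12.24, 12.13 and 11.90 on pancreatectomy replicates 1 to 4 and 12.22, 12.16, 12.76 and 11.87 on sham replicates 1 to 4 by its brighter probe (chr3:95466855-95466914, mm9, plus strand). All pancreatectomy values lay inside the sham range. The change was -0.19 ± 0.20 (adjusted p = 0.774), with an interval of -0.65 to 0.27, and -0.02 without sham replicate 3. The other probe, 1312 bases upstream at chr3:95465543-95465602, gave a change of the opposite sign, 0.14 ± 0.22 (adjusted p = 0.846), so that the direction for Mcl1 is not set.

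**Figure D2:**
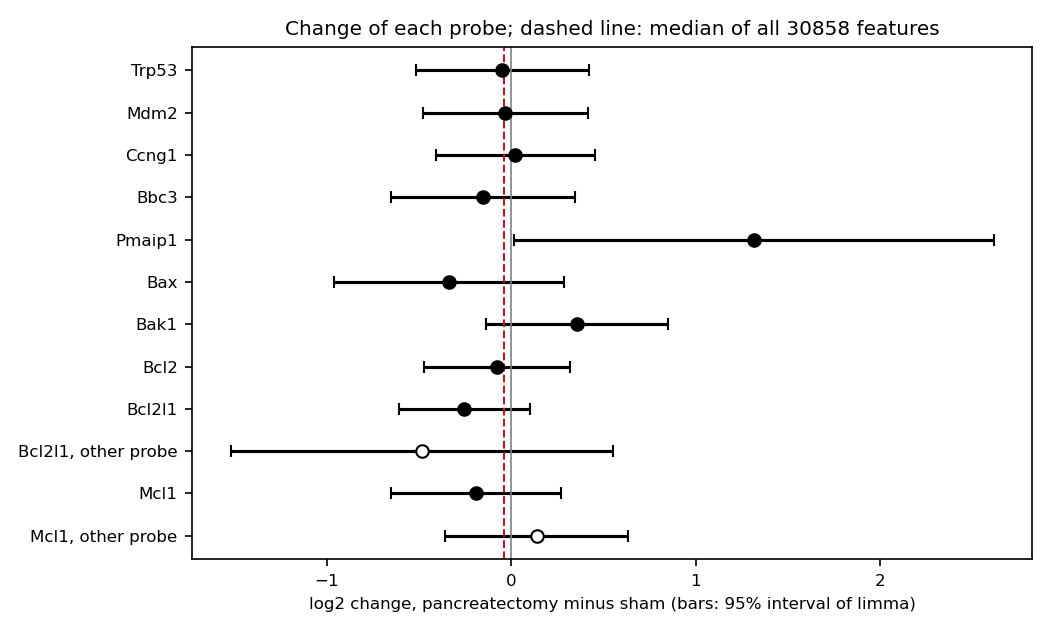
Change of each of the 12 probes of the 10 genes on the log2 scale, pancreatectomy minus sham, with the 95% interval from limma; open circles are second probes of a gene. All intervals but that of Pmaip1 (0.02 to 2.62) include 0, and the dashed line marks the median of all features at -0.04.

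Sham replicate 3 was the highest of all 8 arrays for 5 of the 10 genes (Trp53, Mdm2, Bax, Bcl2l1 and Mcl1) and the lowest for Ccng1 and Bbc3. It was the dimmest array. Its mean over 8 acinar genes was the lowest, at 11.45 against 12.83 to 14.95 on the other 7 arrays, and its mean over the 11 islet genes was the highest, at 16.80 against 15.81 to 16.39. The part of brightness and of these markers was not tested. Without sham replicate 3, 6 of the 10 changes were below 0, and the median change of all features was -0.05. Of the 10 genes 0 passed, against 115 higher and 32 lower among the 30858 features. Bak1 alone of the 10 had an unadjusted p under 0.05, as did 4373 of the 30858 features. The authors' deposited table, which holds 1 average per group, gives for Pmaip1 a normalized log2 value of 1.06 for pancreatectomy and -0.27 for sham, and for Bax -0.06 for pancreatectomy and 0.27 for sham. For all 12 probes its differences lie within 0.006 of those computed here.

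The genes whose signal followed each of the 10 most closely over the 8 arrays were looked for among the other 91 tested genes of the p53, Bcl2 family and apoptosis lists. Bcl2l1 was most like Polk, a DNA polymerase of damage bypass (Pearson r = 0.97, Spearman rho = 1.00), by the brighter probe of Polk (change -0.36). A second probe of Polk gave a change of the opposite sign, 0.24. Pmaip1 was most like Bcl2a1d, a survival gene of the Bcl2 family (r = 0.96, rho = 0.74). Bbc3 was most like Ccng1 (r = 0.90, rho = 0.95), both having their lowest value on sham replicate 3. Bax was most like Bcl2l13 (r = 0.93, rho = 0.83), Bak1 like Bcl2l12 (0.89, 0.90), Trp53 like Tnfrsf21 (0.85, 0.79) and Bcl2 like Tigar (0.67, 0.69). Ccng1 was most like Chek1 (0.93, 0.81), which was not above background on sham replicate 3. Mcl1 (0.92, 0.64) and Mdm2 (0.88, 0.45) were both most like Ddb2, with a lower rho. Mcl1, Mdm2 and Ddb2 each had their highest value on sham replicate 3. These matches are descriptions over 8 arrays that share the 2 groups and sham replicate 3.

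The wider pathway gave a similar picture. Of 88 further genes in 6 lists, 82 were tested, 0 passed and 9 had an unadjusted p under 0.05, beside 10.5% of all features. Their changes split evenly, with 41 above and 41 below 0, and their median was 0.01, against -0.04 over all features. The groups did not overlap for 2 of the 82 genes (2.44%), Pidd1 and Hrk, against 8.28% of all features.

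**Figure D3:**
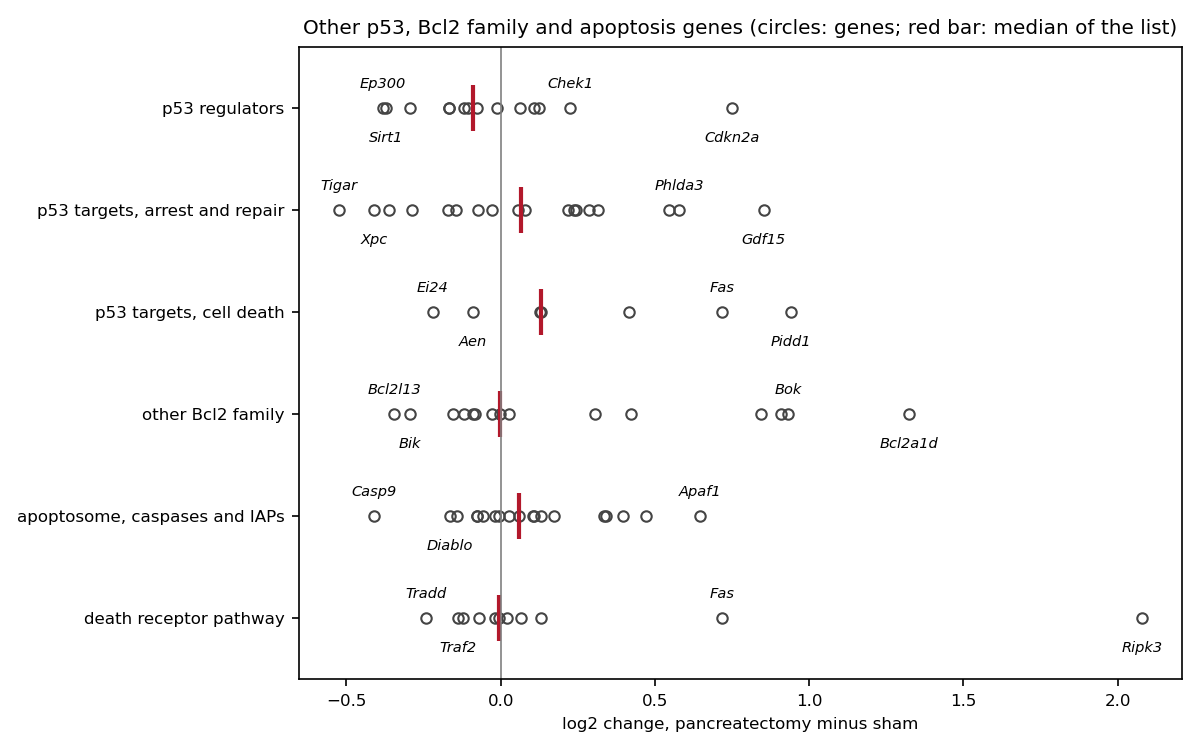
Log2 change, pancreatectomy minus sham, of the tested genes of 6 lists (circles), with the list median as a red bar and the named genes labelled. No gene passed the test. Most changes lie near 0, and Ripk3 (2.08) and Bcl2a1d (1.33) are farthest to the right.

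Among regulators of p53, 14 of 15 genes were tested and 0 passed, with a median change of -0.09. Cdkn2a, whose Arf product restrains Mdm2, had 7.99, 7.24, 7.47 and 8.15 on pancreatectomy replicates 1 to 4 and 6.38, 6.72, 7.90 and 6.86 on sham replicates 1 to 4. Only sham replicate 3 overlapped the pancreatectomy arrays, and the change was 0.75 ± 0.34 (adjusted p = 0.496). Chek1, a checkpoint kinase, had 0.23 ± 0.31, and -0.10 without sham replicate 3, where it was below background. The acetyltransferase gene Ep300 had -0.38 ± 0.22, and -0.20 without pancreatectomy replicate 4. The deacetylase gene Sirt1 had -0.37 ± 0.23, and -0.19 without sham replicate 3. The checkpoint kinase Chek2 did not pass the filter on dim probes and was not tested.

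Of 18 p53 targets listed under arrest and repair, some of which have other functions, 18 were tested and 0 passed, with a median of 0.07. Gdf15, a stress-induced cytokine, had 7.70, 6.02, 7.93 and 5.38 on pancreatectomy replicates 1 to 4 and 6.10, 6.39, 5.17 and 5.95 on sham replicates 1 to 4, where 3 of the 4 were above background. Its change was 0.85 ± 0.57 (adjusted p = 0.635), and it was -0.21 without pancreatectomy replicates 1 and 3. Phlda3, an inhibitor of Akt, had 0.58 ± 0.28, which was 0.35 without pancreatectomy replicate 1 and 0.14 without replicates 1 and 3. The lowest changes were those of Tigar, which encodes a regulator of glycolysis, at -0.52 ± 0.27 (-0.23 without pancreatectomy replicates 1 and 3), and of Xpc, a damage sensor of nucleotide excision repair, at -0.41 ± 0.17 (adjusted p = 0.461).

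Of 8 p53 targets that act in cell death, 7 were tested and 0 passed, with a median of 0.13. Pidd1, which encodes the p53-induced protein that recruits caspase-2, had the lowest adjusted p of the 82 genes. Its levels were 8.64, 7.90, 8.06 and 8.60 on pancreatectomy replicates 1 to 4 and 7.26, 7.41, 7.31 and 7.45 on sham replicates 1 to 4. Every pancreatectomy array was above every sham array. By its other probe this held narrowly (5.70 to 6.61 against 4.77 to 5.67), with 3 of 4 sham arrays above background. The change was 0.94 ± 0.20 (adjusted p = 0.108) and 0.78 ± 0.25 by the other probe. It was above 0 in all 23 alternatives, from 0.57 to 1.07, and passed with array weights (0.92, adjusted p = 0.024). Without pancreatectomy replicates 1 and 3 it was 0.89. The changes of several other named genes, Fas and Bok among them, also kept their sign in all alternatives. Fas, the death receptor, had 7.89, 8.00, 8.38 and 7.33 after pancreatectomy and 7.39, 7.09, 7.41 and 6.85 in sham, in order of replicate, with a change of 0.72 ± 0.24 (adjusted p = 0.355). Only pancreatectomy replicate 4 lay within the sham range. The nuclease gene Aen had -0.09 ± 0.21 and Ei24 -0.22 ± 0.16.

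Of 18 other members of the Bcl2 family, 15 were tested and 0 passed, with a median of 0.00. Bok, a relative of Bax and Bak, had 10.50, 9.69, 10.19 and 10.09 on pancreatectomy replicates 1 to 4 and 9.05, 8.94, 9.75 and 9.01 on sham replicates 1 to 4. Sham replicate 3 alone overlapped the pancreatectomy arrays. The change was 0.93 ± 0.24 (adjusted p = 0.200), 1.12 without sham replicate 3 (adjusted p = 0.066) and 1.20 with array weights, where it passed (adjusted p = 0.007). Bcl2a1d, a survival gene with close paralogs whose signal on the array may not be separable, had 10.64, 8.58, 11.30 and 8.88 on pancreatectomy replicates 1 to 4 and 8.17, 8.996, 8.33 and 8.61 on sham replicates 1 to 4. Its change of 1.33 ± 0.58 (adjusted p = 0.472) was 0.20 without pancreatectomy replicates 1 and 3. Hrk, a BH3-only gene, was named after its values were seen because its groups did not overlap. Its levels were low, at 4.25 to 4.53 after pancreatectomy and 3.69 to 4.24 in sham, with 3 of 4 sham arrays above background. The change of Hrk was 0.42 ± 0.17 (adjusted p = 0.441). Bik, another BH3-only gene, had -0.29 ± 0.15. Bcl2l13 had -0.34 ± 0.22, and -0.15 without sham replicate 3.

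Downstream of the mitochondria, 19 of 19 genes of the apoptosome, the caspases and their inhibitors were tested and 0 passed, with a median of 0.06. Casp9, the initiator caspase of this pathway, had -0.41 ± 0.22, and -0.21 without sham replicate 3. Apaf1, the scaffold that activates it, had 0.65 ± 0.40, with 3 of 4 sham arrays above background. It was 0.30 without sham replicate 3 and 0.13 without pancreatectomy replicates 1 and 3. Diablo, an antagonist of caspase inhibitors, had -0.16 ± 0.14.

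In the death receptor pathway, which meets the mitochondrial one at the caspases, 11 of 12 genes were tested and 0 passed, with a median of 0.00. Ripk3, a kinase of necroptosis, had 8.35, 4.88, 8.37 and 5.59 on pancreatectomy replicates 1 to 4 and 4.64, 4.99, 4.11 and 5.14 on sham replicates 1 to 4. Pancreatectomy replicates 1 and 3 were far above the rest, and 3 of 4 sham arrays were above background. The change was 2.08 ± 0.79 (adjusted p = 0.412), and 0.52 without those arrays. The adaptor gene Tradd had -0.24 ± 0.18, and -0.08 without sham replicate 3. Traf2, another adaptor gene, had -0.14 ± 0.15, and -0.04 without sham replicate 1.

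Pmaip1, Bcl2a1d, Ripk3, Gdf15, Phlda3 and Apaf1 are set together here because they were high on pancreatectomy replicates 1 and 3. That their changes fell without those arrays was thus fixed beforehand. On these arrays Pmaip1 lay 2.33 and 2.56 above the mean of the sham arrays, Bcl2a1d 2.12 and 2.77, Ripk3 3.63 and 3.65, and Gdf15 1.80 and 2.03. Phlda3 lay 1.25 and 0.79 above it and Apaf1 1.02 and 1.29. On replicates 2 and 4 the differences were 0.29 and 0.08 for Pmaip1, 0.16 and 0.87 for Ripk3, 0.13 and 0.15 for Phlda3, and 0.15 and 0.12 for Apaf1. The sham mean of Apaf1 takes in 3.47 on sham replicate 3, not above background, while the other sham arrays read 4.73 to 4.94. Apaf1 read 5.52 and 5.79 on pancreatectomy replicates 1 and 3. Its values on replicates 2 and 4, 4.64 and 4.61, lay below all of those other sham arrays.

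Markers of several other cell types were high on the same arrays. The mean of 7 fibroblast genes was 12.25 and 11.62 on pancreatectomy replicates 1 and 3, 9.23 and 9.17 on replicates 2 and 4, and 8.87 to 9.73 on sham arrays. The mean of 7 macrophage genes (of 8 listed, Cd163 not tested) was 11.02 and 10.64 on pancreatectomy replicates 1 and 3, 8.97 and 9.48 on replicates 2 and 4, and 9.16 to 9.67 on sham arrays, with all 7 above background on every array. The mean of 5 neutrophil genes was 8.12 and 7.83 on pancreatectomy replicates 1 and 3, 6.60 and 7.19 on replicates 2 and 4, and 5.65 to 7.13 on sham arrays. The mean of 6 duct genes was 8.16 and 7.74 on pancreatectomy replicates 1 and 3, 6.69 and 6.70 on replicates 2 and 4, and 6.83 to 7.57 on sham arrays. Above background on every array were 6 of the 7 fibroblast genes, 4 of the 6 duct genes and only 1 of the 5 neutrophil genes. The mean of the 11 islet genes was lowest on pancreatectomy replicates 1 and 3, at 15.81 and 16.04, against 16.11 to 16.80 on the other 6 arrays. B-cell genes were high on pancreatectomy replicate 3 alone, and liver genes on pancreatectomy replicate 1 but not 3. The mean of 4 T-cell genes was 6.72 on pancreatectomy replicate 1, the lowest of all arrays, and 9.33 on replicate 3. The mean of 6 endothelial genes differed little, at 10.11 and 10.02 on pancreatectomy replicates 1 and 3, 9.91 and 9.90 on replicates 2 and 4, and 9.44 to 9.93 on sham arrays. The part of these markers in the values of the 6 genes was not tested. The mean of the cycling genes instead lay 2.72 to 4.45 above the sham mean on each of the 4 pancreatectomy arrays.

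**Figure D4:**
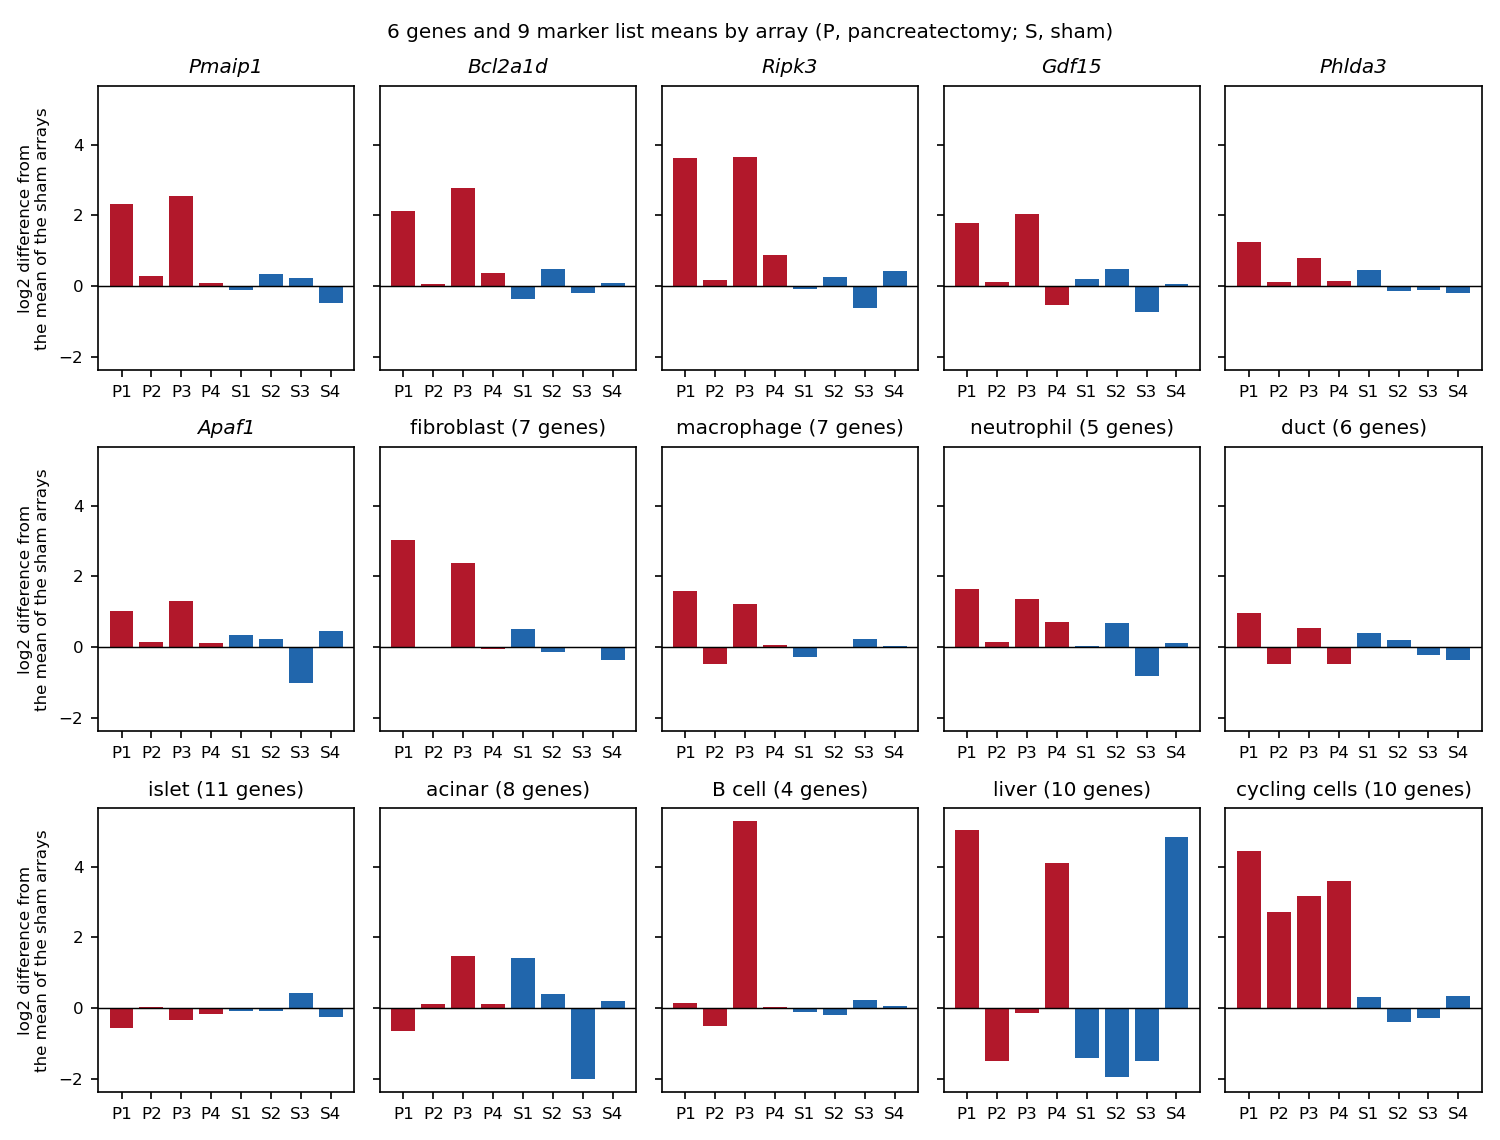
Log2 difference from the mean of the 4 sham arrays, on pancreatectomy arrays P1 to P4 (red) and sham arrays S1 to S4 (blue), for 6 genes and for the means of 9 marker lists. The 6 genes were picked because they are high on P1 and P3. The fibroblast, macrophage, neutrophil and duct means are high there too, whereas the cycling genes are high on all 4 pancreatectomy arrays. The T-cell, endothelial and gut means are not shown.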

How the data were processed

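Agilent Feature Extraction made the deposited intensity of each spot, version 10.7.3.1 per the file headers and 9.1 per the submitters' processing notes. Per the file headers, background subtraction and detrending within each array led to the processed signal used here. A table that the authors deposited holds 1 average per group as raw intensity and as log2, made with GeneSpring GX 12.5 and a percentile shift. It supplied gene symbols, updated by Entrez ID through a GRCm38 table for names only.

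From 59305 spots per array (55681 probes), outlier spots were left out (113 to 228 per array). Values are log2 of the processed signal, shifted to a common 75th percentile, with spots of a probe averaged. A probe was kept if well above background on at least 4 of 8 arrays with at least 3 values per group, and a gene is its brightest kept probe. No spot was saturated. The fit (lmFit and eBayes of limma 3.58.1, R 4.3.3) took all 8 arrays and no covariates. Changes are pancreatectomy minus sham with their SE, and intervals are 95%. The number of arrays limits the precision, with a median SE of 0.22 over all features. Data simulated for this comparison had 30767 features, 200 of them changed. The fit found 40.3% of the features given a log2 change of 1, 74.6% of those given 2 and 90.9% of those given 3. The simulated noise was normal, independent between arrays and of the same spread in both groups. Deviations of a whole array, as on sham replicate 3, and unequal spreads, as for Pmaip1, were not simulated.

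The members, the lists and the tests were chosen with earlier results of these data known. All 10 genes are named, and from each pathway list those past the threshold and otherwise the 2 highest and the 2 lowest changes, with for each member the gene most like it over the arrays. The values of 1 gene named by this rule are not reported here. Alternatives covered scaling, background correction (normexp on the median signal, offset 50, since the files hold no mean signal), the filter, the probe rule, the slide row, array weights, an intensity trend and left-out arrays. The sham label names 1 slide position more than once, so arrays were taken from their files, numbered as replicates in the order of slide position. Exon and UTR annotation on mm9 was not used here.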

Additional observations from a re-analysis of the deposited data

Results flagged for a closer look

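In 70 groups of 4 arrays (35 probes of the genes named above, in 2 groups), 9 held an array whose gap to the nearest other array was a larger share of the group's whole range than Dixon's 95% critical value for 4 values. Chance gives this in about 1 group in 20. Of the 9, 8 were on sham replicate 3, the dimmest array, and the groups of 1 array set are not independent. Sham replicate 3 was high at 13.15 for Mdm2 (others 12.47 to 12.55), at 13.08 for Bax (11.91 to 12.03), at 10.50 for Bak1 (9.80 to 9.86) and at 7.33 for the second probe of Bcl2l1 (5.21 to 5.53). It was high too at 9.75 for Bok (8.94 to 9.05) and at 11.59 for Tradd (10.91 to 10.97). It was low at 3.94 for Chek1 (5.12 to 5.34) and at 3.47 for Apaf1 (4.73 to 4.94). Neither probe was well above background on that array, where the lowest signal that was lay at 5.19. Sham replicate 1 was high at 9.78 for Phlda3 (9.13 to 9.22).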

How the results depend on the processing

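No member passed in any of the 23 alternatives, and no pathway gene did except under array weights, where 3 passed higher (Pidd1 0.92, Bok 1.20 and Cdkn2a 0.99). The counts over all features, 168 higher and 26 lower, moved more. They were 18 and 0 with no scaling (387 features at an unadjusted p under 0.05), 51 and 6 with normexp, 68 and 4 with no filter, 407 and 361 with array weights, 111 and 11 with the slide row as a replicate block, and 0 and 0 within each slide row (2020 and 896 at an unadjusted p under 0.05). Only well-measured probes on all arrays gave 92 higher, and median scaling gave 130 higher and 48 lower. Without pancreatectomy replicates 1 and 3 they were 14 and 1, and without the arrays with liver, gut or B-cell transcripts, which leaves 1 pancreatectomy array assumed to vary like the sham arrays, 0 and 0 (1648 at an unadjusted p under 0.05). Leaving out 1 array gave 56 to 165 higher and 3 to 32 lower. The cause of these shifts was not tested.

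Several changes turned sign, most of them near 0, with Gdf15 (0.85) the exception. Trp53 had 0.046 with normexp, 0.045 with array weights and -0.152 to 0.063 without 1 array. Mdm2 had 0.020 with quantile scaling, 0.059 with array weights, 0.21 within slide row 1, 0.22 without the arrays with liver, gut or B-cell transcripts, 0.13 without pancreatectomy replicates 1 and 3, and from -0.13 to 0.13 without 1 array. Ccng1 had -0.10 with median scaling, -0.20 within slide row 1, -0.14 with array weights, and -0.13 to 0.11 without 1 array. Bbc3 had 0.17 within slide row 2 and 0.047 without pancreatectomy replicates 1 and 3. Bcl2 had 0.029 with array weights, 0.059 without the arrays with other transcripts, and -0.157 to 0.033 without 1 array. Chek1 had -0.036 within slide row 1 and -0.125 with array weights, and -0.10 to 0.37 without 1 array. Aen had 0.048 and 0.131 in those settings and -0.18 to 0.11 without 1 array, and Gdf15 had -0.21 without pancreatectomy replicates 1 and 3. With the slide row as a replicate block Pmaip1 had 1.32 (adjusted p = 0.538), and the block changed no call of a named gene. The slide row is no replicate number of the labels, and the arrays of the groups are not known to be paired. Of 754 comparisons of a named gene with an alternative, 718 kept direction and side of the threshold. In part this count was fixed beforehand. The intensity trend and the fit of every probe on its own leave each change as it was. No named gene passed in the main fit and no feature passed within either slide row, so the side could not differ there. The count is therefore no measure of robustness.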
